A study of Mus musculus with 8 samples.

Results

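The chemokines made by 4T1 mouse mammary carcinoma cells were followed after 48 hours with 5 mM acetate. A total of 10 chemokine genes were chosen by name from the 20189 genes of the deposited expression table, namely Cxcl1, Cxcl2, Cxcl3, Cxcl5, Cxcl16, Cx3cl1, Ccl2, Ccl5, Ccl7 and Ccl20. The rule names the genes and uses no threshold on a measured value, but they were picked with earlier results of these data known. All 10 were in the table. 4T1 is an established line from a spontaneous mammary tumor of a BALB/c mouse that spreads to the lung when injected into mice. The vehicle group and the acetate group had the same wild-type (WT) cells in the same serum-containing medium, and differed in the addition of 5 mM acetate or of water for 48 hours. Each group had 4 libraries, and libraries with the same number shared an experiment code, so that they form 4 pairs. The cells were a culture of 1 line, without stroma or immune cells of a host. Cells can convert acetate to acetyl-CoA, and the comparison addressed which genes respond when more of this metabolite can be made, in the context of metastasis.

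Chemokines are small secreted proteins that direct the movement of cells carrying matching G protein-coupled receptors. CXC chemokines with a glutamate-leucine-arginine (ELR) motif bind Cxcr2 and attract neutrophils, whereas the CC chemokines studied here attract monocytes, T cells or dendritic cells. Many of these genes are inducible by interleukin 1 or tumor necrosis factor through NF-kB, and several of their mRNAs hold AU-rich elements, which are bound by proteins that hasten mRNA decay. Carcinoma cells are a known source of chemokines that draw myeloid cells into tumors.

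All values are normalised reads, the reads of a gene on a total of 20000000 per library, and the 8 libraries held 19.9 to 29.3 M reads. The 6 epithelial and mammary carcinoma markers tested (Krt7, Krt8, Krt18, Krt19, Epcam and Cdh1) summed to 56725 to 75159 normalised reads in vehicle libraries and to 61364 to 76026 in acetate libraries. Krt19 (log2 change 0.40, adjusted p = 2.54e-04) and Cdh1 (0.15, adjusted p = 0.00592) were higher with acetate, and the other 4 did not pass. Of 12 leukocyte markers, the table held 5, and they summed to 93.1 to 204 normalised reads in vehicle and 102 to 216 in acetate libraries, mostly from Cd68. The pan-leukocyte marker Ptprc stayed between 0.682 and 3.02 normalised reads in every library, and Adgre1, Itgam, Ly6g, Cd3e, Tyrobp and Laptm5 were not among the genes of the table. Csf1r, the receptor of macrophage colony-stimulating factor, was the leukocyte marker that passed the test (13.1 ± 3.66 to 28.4 ± 6.2 normalised reads, SD, n = 4, log2 change 1.08, adjusted p = 0.00774). Of 9 fibroblast and endothelial markers, the table held 6, which summed to 237 to 1528 normalised reads in vehicle and 403 to 2003 in acetate libraries. Almost all of that was Pdgfra (994 ± 544 to 1367 ± 680 normalised reads, SD, n = 4, adjusted p = 3.72e-04). Pdgfrb rose too, from 10.2 ± 8.76 to 23.3 ± 13.8 normalised reads (SD, n = 4, adjusted p = 0.0119), whereas Thy1, Lum and Kdr were not in the table. The part of these markers in the chemokine values was not tested.

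Acetate-treated cells had more mRNA of the 4 ELR chemokines among the 10 and of Cx3cl1 than vehicle-treated cells. The log2 change was 0.73 for Cxcl3, 0.68 for Cxcl2, 0.56 for Cxcl5, 0.29 for Cxcl1 and 0.20 for Cx3cl1. Each was higher in 4 of 4 pairs, as were 16.7% of all genes. The smallest of these differences were 0.0035 for Cxcl5 in pair 4 and 0.03 for Cx3cl1 in pair 1, on the log2 scale. Thus 5 of the 10 chemokines rose and 0 fell at an adjusted p under 0.05. Of all genes tested, 5.99% rose, 2.65% fell and 8.64% changed in either direction. All 10 chemokines had a mean of at least 10 normalised reads. With only such genes in the same fit, 2263 of 13292 passed (1489 higher and 774 lower), and so did 6 of the 10 chemokines, all higher. None of the 4 CC chemokines and not Cxcl16 passed the test. The median log2 change of the 10 genes was 0.34, beside 0.02 over all 20189 genes. In bulk RNA, a larger share of cells making a chemokine and more mRNA per cell cannot be told apart.

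These calls compared same-numbered libraries with each other (limma on log2 of the value + 1, the replicate number as a block, Benjamini-Hochberg adjustment over all 20189 genes, two-sided). Without the block, 0 of the 10 chemokines and 0% of all genes passed the threshold, and the adjusted p was 1.00 for each of the 10. Before adjustment, 353 of all 20189 genes had an unblocked limma p under 0.05, among them Cxcl2 and Cxcl5 of the 10. In the blocked fit, 7 of the 10 had an unadjusted p under 0.05.

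**Figure D1:**
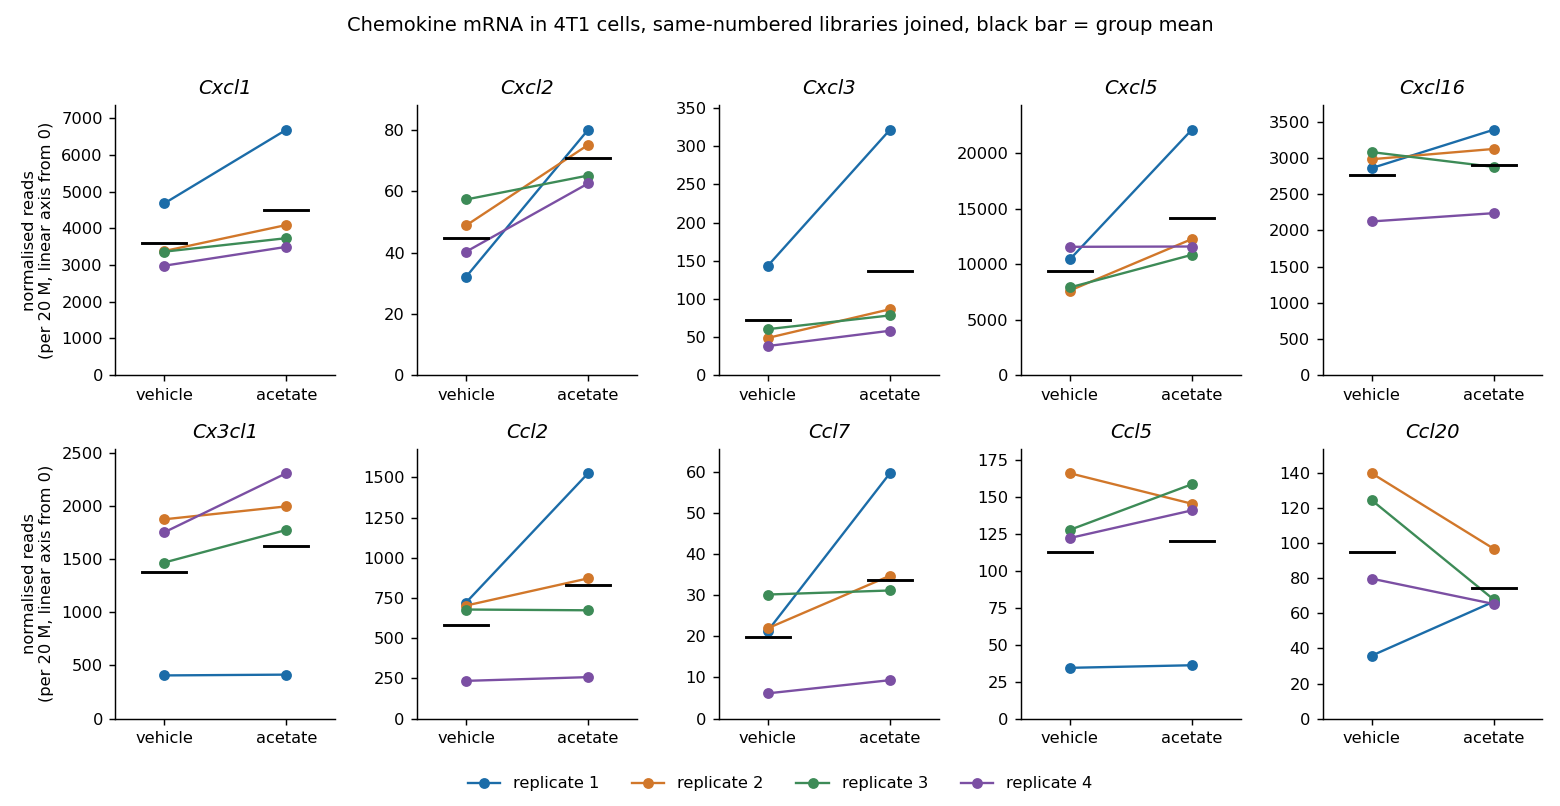
Normalised reads (per 20 M, linear axes from 0) of the 10 chemokines in vehicle and acetate libraries, with same-numbered libraries joined and group means as black bars. Lines slope upward in 4 of 4 pairs for the 4 ELR chemokines, Cx3cl1 and Ccl7, although pair 4 of Cxcl5 is almost level. Only for Cxcl2 do all acetate values (62.5 to 80.1) lie above all vehicle values (32.1 to 57.3).

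The promoters of 3 of the ELR chemokines are shown because the letters of an NF-kB motif lie at a similar place in each. The 250 bases before the start of transcription are given for Cxcl3, Cxcl1 and Cxcl2 from RefSeq (build GRCm38.p6, 5′ to 3′), with the core motif GGAATTTCC and the TATA-like letters ATAAAA in capitals.
Cxcl3 chr5:90785851-90786100 (+): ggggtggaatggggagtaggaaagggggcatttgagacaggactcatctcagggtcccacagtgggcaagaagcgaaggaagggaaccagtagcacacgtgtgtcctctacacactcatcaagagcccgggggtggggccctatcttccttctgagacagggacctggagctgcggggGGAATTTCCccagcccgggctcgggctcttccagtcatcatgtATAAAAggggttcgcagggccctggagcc
Cxcl1 chr5:90890995-90891244 (+): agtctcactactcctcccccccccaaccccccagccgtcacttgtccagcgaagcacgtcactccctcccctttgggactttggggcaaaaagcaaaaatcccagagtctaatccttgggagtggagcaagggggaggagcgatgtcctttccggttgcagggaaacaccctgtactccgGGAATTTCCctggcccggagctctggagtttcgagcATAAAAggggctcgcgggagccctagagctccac
Cxcl2 chr5:90903649-90903898 (+): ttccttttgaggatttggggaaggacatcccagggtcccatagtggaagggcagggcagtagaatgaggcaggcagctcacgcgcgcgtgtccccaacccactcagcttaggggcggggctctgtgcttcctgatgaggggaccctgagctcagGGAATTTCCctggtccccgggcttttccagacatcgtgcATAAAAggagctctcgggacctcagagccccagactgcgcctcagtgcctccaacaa
The core motif began 72, 70 and 96 bases before the RefSeq start of Cxcl3, Cxcl1 and Cxcl2. All distances here are from RefSeq starts, which differ from the GENCODE starts given with each gene below. For Cxcl2, the printed bases run to 90903898, past its GENCODE start at 90903871. It was searched on both strands in windows of 300 bases (250 before and 50 after the start) and was present in 104 of 32851 such windows (0.317%). Of the 5 chemokines with a window in the RefSeq set, Ccl20 and Cx3cl1 did not hold these exact letters. Other spellings of an NF-kB motif were not searched, so their absence from these windows is not shown. No window was at hand for Cxcl5, Cxcl16, Ccl2, Ccl5 and Ccl7. ATAAAA, chosen after the sequences were seen and searched as written, lay 29, 34 and 57 bases before the 3 starts, and 11.1% of all windows had it. It also lay 5 bases before the start of Cx3cl1, so that 4 of the 5 windows held it. In Cxcl3 and Cx3cl1 it overlapped TATAAA, a motif of 8.32% of windows. The AP-1 motif TGANTCA (7.81% of windows) and the cyclic AMP response motif TGACGTCA (1.79%) were found in none of the 5 on either strand. These are matches of letters in a window and do not show binding.

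The same 3 mRNAs hold the AU-rich motif TATTTAT after the stop codon. The window of 30 bases with the most copies is given for each (GENCODE M21, 5′ to 3′, each TATTTAT in capitals), with 4 overlapping copies in Cxcl1 and in Cxcl2 and a single one in Cxcl3.
Cxcl1, bases 80 to 109 after the stop codon: agggtccTATTTATTTATgTATTTATTTAT
Cxcl2, bases 880 to 909: actTATTTATTTATctatgTATTTATTTAT
Cxcl3, bases 407 to 436: aactatacaagattatcagttgtTATTTAT
Over the whole 3′ untranslated region, Cxcl2 had 7 copies in 1494 bases, Cxcl1 6 in 592 and Cxcl3 2 in 645. Cxcl5, Ccl20 and Cx3cl1 had 1 copy each, and Cxcl16, Ccl2, Ccl5 and Ccl7 had 0. Thus 6 of the 10 chemokines had the motif at least once, beside 29.1% of 13660 genes with a 3′ untranslated region. The shorter motif ATTTA ranged from 0 copies in Ccl5 to 11 in Cxcl2, with 9 in Ccl20, 7 in Cxcl1, and 5 in both Cxcl3 and Cxcl5. Of the 13660 genes, 21.4% had 5 or more copies.

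Cxcl5, the most abundant of the 10 mRNAs, encodes an ELR chemokine for neutrophils (ENSMUSG00000029371, GRCm38 chr5:90759360-90761624, plus strand, protein coding). Vehicle libraries 1 to 4 held 10433, 7627, 7911 and 11577 normalised reads, and acetate libraries 1 to 4 held 22138, 12275, 10855 and 11605. Acetate library 1 stood well above all others, and the groups overlapped, since vehicle library 4 lay above acetate library 3 and close to its own partner. Means were 9387 ± 1929 and 14218 ± 5312 normalised reads (SD, n = 4). The pairwise log2 changes were 1.09, 0.69, 0.46 and 0.0035, and the fitted change was 0.56 ± 0.12 (SE, 95% interval 0.30 to 0.82, limma adjusted p = 0.0141). Without replicate 2 the adjusted p was 0.0959, without replicate 3 it was 0.122, and with DESeq2 on the recovered reads it was 0.118, with changes of 0.52, 0.59 and 0.54.

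Cxcl1, a main Cxcr2 ligand of the mouse, lies further along the same cluster (ENSMUSG00000029380, chr5:90891241-90893115, plus strand). Its normalised reads were 4677, 3380, 3363 and 2980 in vehicle libraries and 6683, 4089, 3731 and 3494 in acetate libraries. Experiment 1 was the highest in both groups, and the other 3 acetate libraries lay above the other 3 vehicle libraries. From means of 3600 ± 741 and 4499 ± 1477 (SD, n = 4), the log2 change was 0.29 ± 0.05 (SE, 95% interval 0.19 to 0.40, limma adjusted p = 0.00378), with pairwise values of 0.51, 0.27, 0.15 and 0.23. Without replicate 4 the change was 0.31 and the adjusted p 0.0523.

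Cxcl3 is a less abundant Cxcr2 ligand (ENSMUSG00000029379, chr5:90786103-90789600, plus strand) and had the largest fitted change of the 10. Vehicle libraries held 143.5, 48.8, 60.3 and 38.2 normalised reads, and acetate libraries held 321.8, 86.4, 78.3 and 58.2. As for Cxcl1, experiment 1 was far above the rest in both groups, so that vehicle library 1 exceeded 3 of the 4 acetate libraries. Group means were 72.7 ± 48.1 and 136 ± 124 normalised reads (SD, n = 4), whereas the pairwise log2 changes of 1.16, 0.81, 0.37 and 0.59 gave a fitted change of 0.73 ± 0.13 (SE, 95% interval 0.44 to 1.02, limma adjusted p = 0.00607). Without replicate 4 the change was 0.78 and the adjusted p 0.0539.

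Cxcl2, which encodes another neutrophil attractant (ENSMUSG00000058427, chr5:90903871-90905938, plus strand), rested on only 42 to 102 reads per library. Vehicle libraries held 32.1, 48.8, 57.3 and 40.3 normalised reads, and acetate libraries held 80.1, 75.1, 65.1 and 62.5. It was the 1 chemokine of the 10 whose groups did not overlap, a pattern that 0.996% of all genes had in this direction. Experiment 1 had its lowest vehicle value and its highest acetate value, unlike Cxcl1 and Cxcl3. Means were 44.6 ± 10.9 and 70.7 ± 8.26 normalised reads (SD, n = 4), and the log2 change was 0.68 ± 0.17 (SE, 95% interval 0.31 to 1.05, limma adjusted p = 0.0302), from pairwise changes of 1.29, 0.61, 0.18 and 0.62. Without replicates 1 to 4 in turn, the change was 0.47, 0.70, 0.84 and 0.70 and the adjusted p 0.0925, 0.113, 0.0648 and 0.152. Of the stretches of 75 bases, the read length, in its annotated transcripts, 4.57% also occurred in transcripts of Cxcl3, and 2.78% of those of Cxcl3 occurred in Cxcl2, so that a small share of their reads may have been divided between them.

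Cx3cl1 and Cxcl16 encode the pair of chemokines that are made as transmembrane proteins and can be shed from the cell surface. Cx3cl1 (fractalkine, ENSMUSG00000031778, chr8:94772009-94782427, plus strand), the ligand of Cx3cr1, had 406, 1874, 1468 and 1752 normalised reads in vehicle libraries and 414, 1996, 1774 and 2308 in acetate libraries. Both libraries of experiment 1 lay far below the other 6, and within each pair the acetate library was the higher one. Means of 1375 ± 668 and 1623 ± 835 (SD, n = 4) thus overlapped widely, while the pairwise changes of 0.03, 0.09, 0.27 and 0.40 gave a log2 change of 0.20 ± 0.05 (SE, 95% interval 0.08 to 0.32, limma adjusted p = 0.0450). This call was near the threshold. Without replicates 2, 3 and 4 the adjusted p was 0.0924, 0.259 and 0.252 and the change 0.23, 0.17 and 0.13, and it was 0.0655 with median-of-ratios scaling (change 0.18).

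Cxcl16 (ENSMUSG00000018920, chr11:70453983-70459984, minus strand), the ligand of Cxcr6, is known for recruiting T cells. Its vehicle libraries held 2861, 2984, 3083 and 2125 normalised reads, and its acetate libraries 3392, 3127, 2878 and 2239. The groups overlapped almost fully, with experiment 4 lowest in both. The log2 change of 0.07 ± 0.04 did not pass the test (SE, 95% interval -0.03 to 0.17, limma adjusted p = 0.388). The upper end of the interval corresponds to 1.13-fold.

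**Figure D2:**
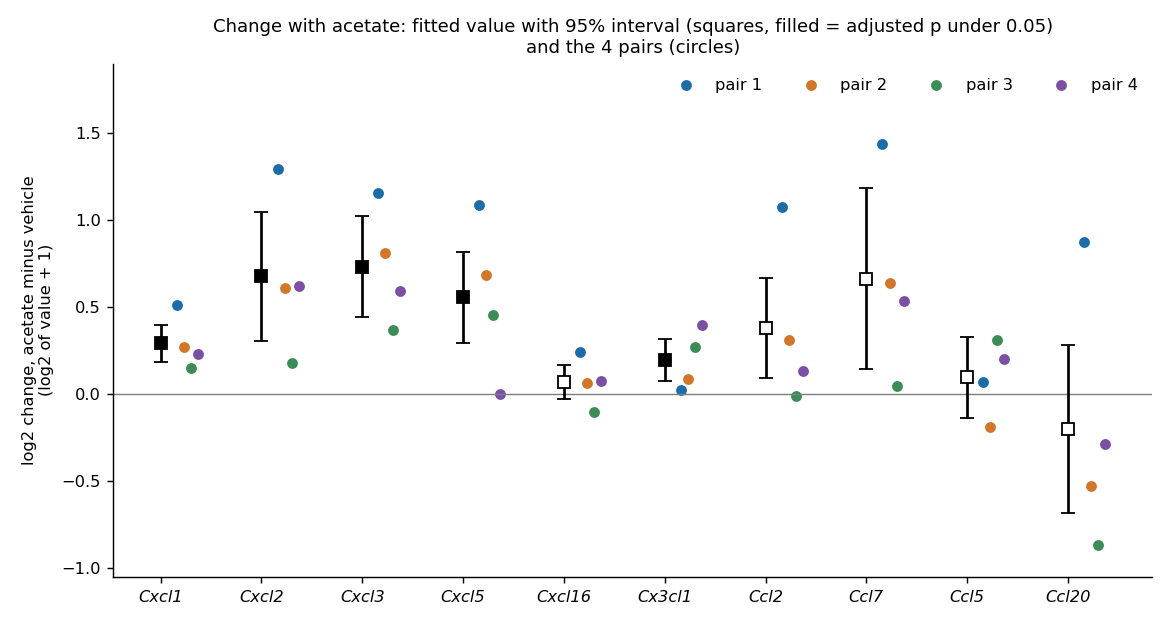
Log2 change of each chemokine, acetate minus vehicle, as the fitted value with its 95% interval (squares, filled at an adjusted p under 0.05) and in each of the 4 pairs (colored circles). The 4 ELR chemokines and Cx3cl1 have filled squares between 0.20 and 0.73, and pair 1 is the highest circle for all of the ELR chemokines, Cxcl16, Ccl2, Ccl7 and Ccl20.

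Ccl2 and Ccl7, neighboring genes for ligands that attract monocytes through Ccr2, had positive estimates that did not pass the test. Ccl2 (ENSMUSG00000035385, chr11:82035571-82037453, plus strand) had 722, 703, 679 and 235 normalised reads in vehicle libraries and 1526, 872, 674 and 258 in acetate libraries. Its span overlaps the antisense gene Gm17268, which was not in the table, and reads of both could be mixed if strand was not used. Most of the difference between its means of 585 ± 234 and 833 ± 529 (SD, n = 4) lay in pair 1, while pair 3 differed by -0.01 and pair 4 by 0.14 on the log2 scale. The fitted change was 0.38 ± 0.13 (SE, 95% interval 0.09 to 0.67, limma adjusted p = 0.107), and without replicate 1 it was 0.15 (adjusted p = 0.207). On the recovered reads, Ccl2 passed with edgeR (log2 change 0.44, adjusted p = 0.00782) and not with DESeq2 (0.36, adjusted p = 0.417), and it passed when genes with a mean under 10 normalised reads were left out (0.38, adjusted p = 0.0491).

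Ccl7 (ENSMUSG00000035373, chr11:82045712-82047525, plus strand) rested on 9 to 76 reads per library. Its vehicle libraries held 21.4, 22.0, 30.2 and 6.14 normalised reads, and its acetate libraries 59.6, 34.7, 31.1 and 9.34. Each acetate library was above its partner, by log2 changes of 1.44, 0.64, 0.04 and 0.53, but the groups overlapped. Over all genes, 16.7% were higher in 4 of 4 pairs, and 6 of the 10 chemokines were. The fitted log2 change for Ccl7 of 0.66 ± 0.24 (SE, 95% interval 0.14 to 1.18) had a limma adjusted p of 0.118, which was 0.0229 with edgeR (change 0.77) and 0.212 with DESeq2 (0.71) on the recovered reads. Without replicate 1 the change was 0.41 (limma adjusted p = 0.389).

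Ccl5 and Ccl20 had estimates near 0 or of changing sign. Ccl5 (ENSMUSG00000035042, chr11:83525778-83530518, minus strand), which attracts T cells, had 34.4, 166, 128 and 122 normalised reads in vehicle libraries and 36.1, 145, 159 and 141 in acetate libraries. Both libraries of experiment 1 were the lowest, as for Cx3cl1, and the log2 change was 0.10 ± 0.11 (SE, 95% interval -0.13 to 0.33, limma adjusted p = 0.653). Ccl20 (ENSMUSG00000026166, chr1:83116766-83119167, plus strand), the ligand of Ccr6, had 35.9, 140, 125 and 79.8 normalised reads in vehicle libraries and 66.7, 96.9, 67.9 and 65.4 in acetate libraries. It was the 1 chemokine of the 10 with a negative estimate, and it was lower in 3 of 4 pairs and higher in pair 1 (log2 changes of 0.88, -0.53, -0.87 and -0.28). The fitted change was -0.20 ± 0.22 (SE, 95% interval -0.68 to 0.28, limma adjusted p = 0.663). Without replicate 1, Ccl20 was called lower (-0.56, adjusted p = 0.0264), and without replicate 3 its change was 0.02.

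By class, 4 of 4 ELR chemokines, 1 of 2 transmembrane chemokines and 0 of 4 CC chemokines rose, with median log2 changes of 0.62, 0.13 and 0.24. Whether the classes differ was not tested. Leaving out replicates 1 to 4 in turn, the genes called were 8.23%, 3.06%, 2.03% and 2.67% of all genes, and the chemokines called numbered 5, 2, 2 and 1. Those 5 were Cxcl1, Cxcl3, Cxcl5 and Cx3cl1 (higher) and Ccl20 (lower), those without replicate 2 or replicate 3 were Cxcl1 and Cxcl3, and the 1 without replicate 4 was Cxcl5. With edgeR on the recovered reads, 7 chemokines rose beside 11.9% of genes called. With DESeq2, 4 rose (Cxcl1, Cxcl2, Cxcl3 and Cx3cl1) beside 9.11% of genes with an adjusted p.

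To compare levels between chemokines, normalised reads were divided by the length of the longest coding transcript. In vehicle cells, Cxcl5 had 5960 ± 1225 normalised reads per kb (SD, n = 4) and Cxcl1 3777 ± 778, followed by Cxcl16 with 1024 ± 161, Ccl2 with 719 ± 288 and Cx3cl1 with 415 ± 202. Lower in the order were Ccl5 (212 ± 105), Cxcl3 (71.6 ± 47.3), Ccl20 (67.1 ± 33.2), Ccl7 (24.9 ± 12.5) and Cxcl2 (24 ± 5.85). Neighbors in this order overlapped in their vehicle ranges, except that every Cxcl1 value (3127 to 4908 per kb) lay above every Cxcl16 value (787 to 1142). In acetate cells the levels per kb were 9027 ± 3372 for Cxcl5 and 4721 ± 1549 for Cxcl1, and the lowest was Cxcl2 with 38.0 ± 4.45. Per kb, the ELR chemokines thus included the highest and the lowest mean of the 10, although Cxcl2 and Ccl7 overlapped. Without division by length, Ccl7 was the lowest, with a mean over the 8 libraries of 26.8 normalised reads beside 57.7 for Cxcl2.

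For most chemokines, the experiment a library came from held more of the spread than acetate did. On the log2 scale, the replicate number held 98.5% of the sum of squares for Ccl5, 98.3% for Cx3cl1, 89.8% for Cxcl16, 88.5% for Ccl2 and 81.2% for Cxcl3. It held 80.2% for Ccl7, 78.0% for Cxcl1, 64.0% for Ccl20, 40.5% for Cxcl5 and 10.2% for Cxcl2. The share of treatment was largest for Cxcl2 (66.8%) and Cxcl5 (39.9%), and 18.1% for Cxcl1, 16.3% for Cxcl3 and 12.7% for Ccl7, whereas it was 5.14% for Ccl2, 3.07% for Ccl20, 2.64% for Cxcl16, 1.06% for Cx3cl1 and 0.319% for Ccl5. The mean of an experiment differed up to 5.23-fold for Ccl7 and 4.56-fold for Ccl2 (1124 normalised reads in experiment 1 and 246 in experiment 4). Cx3cl1 ran the other way, from 410 in experiment 1 to 2030 in experiment 4. For Cxcl2 the experiment means differed by no more than 1.21-fold, less than its fitted change of 1.6-fold with acetate. The labels do not say in what the experiments differed.

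**Figure D3:**
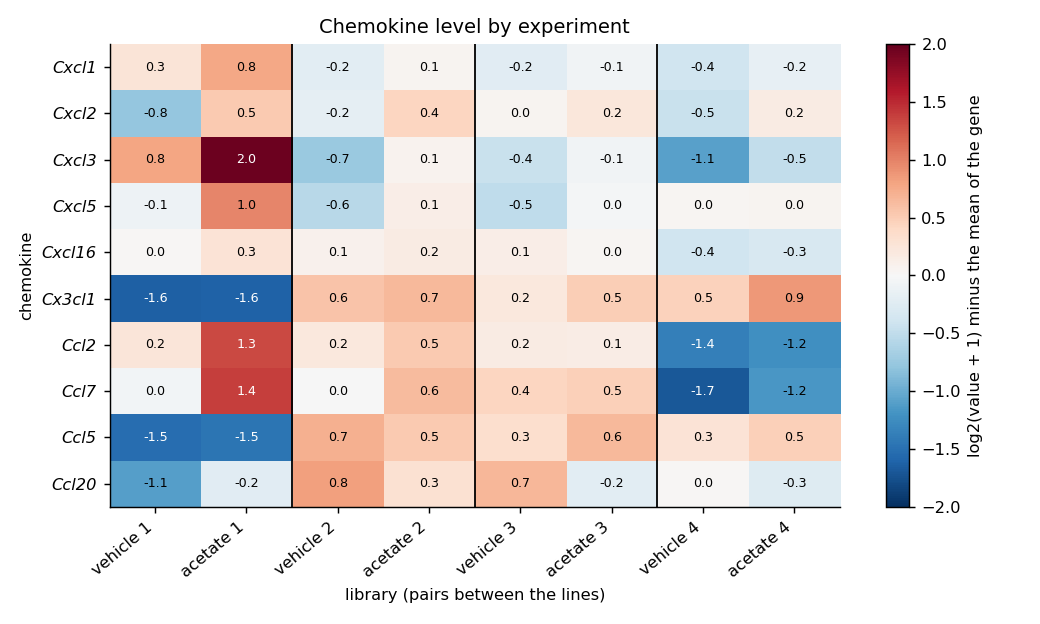
Log2(value + 1) of each chemokine in each library minus the mean of that gene over the 8 libraries, with pairs between the lines (red above, blue below the mean). Cx3cl1 and Ccl5 are lowest in both libraries of experiment 1, Ccl2 and Ccl7 in both of experiment 4, and Cxcl3 peaks in acetate library 1.

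Correlations over the 8 libraries mirror these experiment levels and are given as a description, since same-numbered libraries share an experiment. Cxcl1 and Cxcl3 had a Pearson r of 0.993 on the log2 scale, Ccl5 and Cx3cl1 of 0.981, and Ccl2 and Ccl7 of 0.971. Cxcl16 followed Ccl2 (r = 0.976) and Ccl7 (r = 0.971), while Cxcl3 and Cx3cl1 ran in opposite directions (r = -0.848). Among 10292 genes with a mean of at least 100 normalised reads, those most like Cxcl3 included Cxcl1 and H2afy (r = 0.987), and those most like Cxcl1 were Cxcl3, H2afy (r = 0.979) and Dlgap4 (r = 0.972). The genes most like Cxcl5 were Ptprk (r = 0.932), Sgk1 (r = 0.925) and Pla2g4a (r = 0.924). For Ccl2 they were Ankrd49 (r = 0.988), Rps6ka6 (r = 0.983) and Zfp280b (r = 0.979), and for Cxcl16 they were Ankrd49 (r = 0.980), Cnot10 (r = 0.976) and 2410131K14Rik (r = 0.976). Ccl5 was most like Pigh (r = 0.997), Soga1 (r = 0.997) and Rxrb (r = 0.996), and Cx3cl1 most like Atg2a (r = 0.999), Inpp1 (r = 0.998) and Tmco3 (r = 0.998).

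The 4 ELR chemokine genes among the 10 lie in 146.579 kb of chromosome 5, on the plus strand. That stretch holds 7 protein-coding genes, of which 5 had values, the 4 members and Ppbp, while Pf4 and Cxcl15 were not in the table. Ppbp, an ELR chemokine best known from platelets, went from 22.9 ± 7.95 to 34.5 ± 6.88 normalised reads (SD, n = 4) and did not pass the test (log2 change 0.62, adjusted p = 0.0988). The nearest genes on either side with a mean of at least 10 normalised reads were Rassf6 (log2 change 0.11, adjusted p = 0.264) and Mthfd2l (0.02, adjusted p = 0.871), neither of which passed. Further out, Areg, which encodes the epidermal growth factor receptor ligand amphiregulin, rose from 471 ± 126 to 567 ± 76.5 normalised reads (log2 change 0.30, adjusted p = 0.0313), whereas its relatives Epgn (0.21, adjusted p = 0.656) and Btc (-0.04, adjusted p = 0.843) did not pass.

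**Figure D4:**
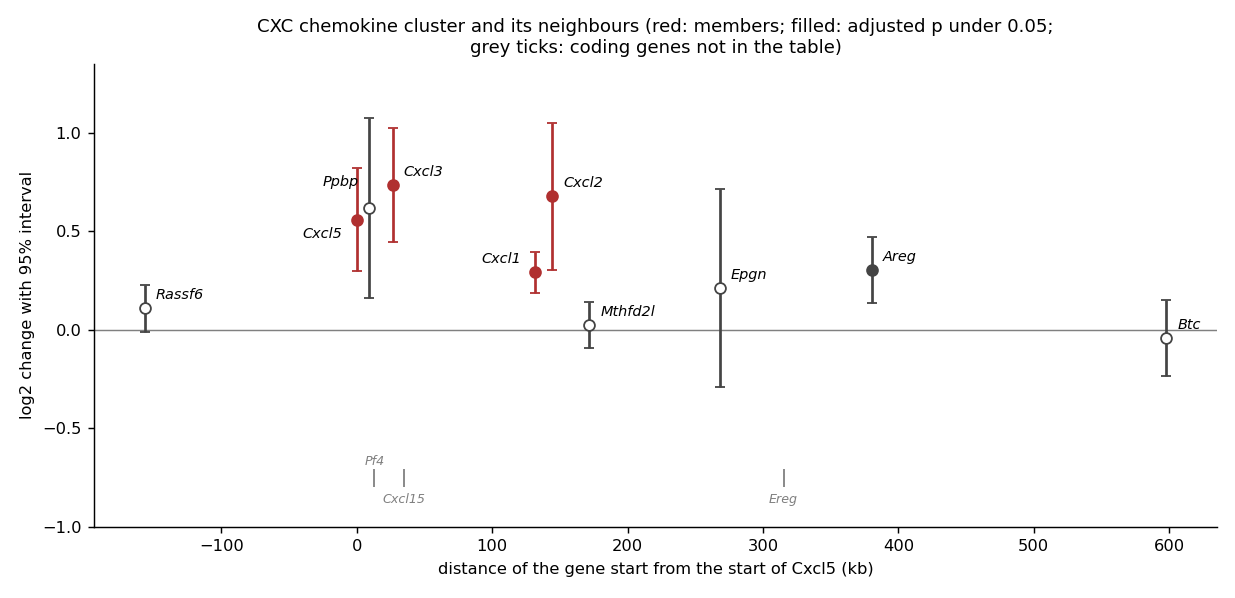
Log2 change with its 95% interval against the distance of each gene start from the start of Cxcl5 in kb, for the genes of the ELR chemokine cluster and its neighbors (red, the chemokines studied; filled, adjusted p under 0.05; grey ticks, coding genes that were not in the table). Cxcl5, Cxcl3, Cxcl1 and Cxcl2 lie at 0.29 to 0.73 and are filled, Rassf6 and Mthfd2l on either side lie at 0.11 and 0.02, and Areg further out is filled at 0.30.

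On chromosome 11, Ccl2 and Ccl7 span 11.955 kb, and no other gene between them was in the table. Ccl5 lies 1.48 Mb further on. Between Ccl7 and Ccl5, 19 genes had a mean of at least 10 normalised reads. Of them, 2 rose and 1 fell, beside 5.99% and 2.65% of all genes at any mean. These were Slfn2 (log2 change 0.54, adjusted p = 0.00169), Mmp28 (1.01, adjusted p = 0.0255) and Nle1 (-0.18, adjusted p = 0.0319). Taf15, the nearest such gene beside Ccl5, did not pass (log2 change -0.04, adjusted p = 0.475).

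Of the other chemokine ligands, 9 of 31 listed genes were in the table and 0 passed the test. The most abundant of them were Ccl25 (113 ± 25.7 in vehicle and 108 ± 20.9 in acetate cells, SD, n = 4, log2 change -0.06), the interferon-induced Cxcl10 (65.7 ± 23.96 and 67.0 ± 22.5, log2 change 0.03), Ppbp and Cxcl11 (8.68 ± 6.73 and 7.80 ± 5.81). The 10 chemokines studied were thus, with Ccl25, Cxcl10 and Ppbp, those above a mean of 10 normalised reads. Of 24 chemokine receptors listed, 9 were in the table and 0 passed. The scavenger receptor Ackr3 was the most abundant (958 ± 301 and 938 ± 332 normalised reads, log2 change -0.05), followed by Cxcr3 (log2 change -0.15), Ccrl2 (0.74, adjusted p = 0.101) and Cx3cr1, the receptor of Cx3cl1 (20.0 ± 11.6 and 20.7 ± 6.89 normalised reads, log2 change 0.16).

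Of 18 cytokines and receptors that act upstream of these chemokines, all were in the table. Among them 5 rose and 0 fell, beside 5.99% and 2.65% of all genes. Il1a, which encodes interleukin 1 alpha, went from 2473 ± 434 to 3050 ± 733 normalised reads (SD, n = 4, log2 change 0.29, adjusted p = 0.00352), and its receptor Il1r1 from 585 ± 267 to 701 ± 332 (0.24, adjusted p = 0.00591). The tumor necrosis factor receptors Tnfrsf1b (0.29, adjusted p = 0.00216) and Tnfrsf1a (0.13, adjusted p = 0.0266) rose, and so did Myd88, the adaptor of interleukin 1 and Toll-like receptors (0.16, adjusted p = 0.0394). Tnf itself had 19.6 ± 6.35 and 32.1 ± 7.86 normalised reads and did not pass (log2 change 0.70, adjusted p = 0.0579), and neither did Il1b, which encodes interleukin 1 beta (22.8 ± 12.2 and 18.5 ± 8.75, log2 change -0.22, adjusted p = 0.661).

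All 22 genes listed for NF-kB and other transcription factors were in the table, and 0 rose while 2 fell, beside 5.99% and 2.65% of all genes. These were Fosl1, an AP-1 subunit, from 2070 ± 648 to 1695 ± 523 normalised reads (SD, n = 4, log2 change -0.28, adjusted p = 0.00934), and Relb, an NF-kB subunit, from 565 ± 152 to 465 ± 90.4 (-0.26, adjusted p = 0.0187). Both were lower in 4 of 4 pairs. Of 10 genes for the decay or stability of chemokine mRNAs, Zfp36l1 rose (1785 ± 163 to 2208 ± 253, log2 change 0.30, adjusted p = 0.00270) and 0 fell. Zfp36l1 encodes a protein that binds AU-rich elements and hastens decay, as does Zfp36, which had 735 ± 538 and 748 ± 550 normalised reads (log2 change 0.02, adjusted p = 0.836). Of 7 genes for shedding and cleavage, 5 could be tested and 2 rose. Adam17, a protease that releases Cx3cl1 from the membrane, had a log2 change of 0.15 (adjusted p = 0.0109), and Rhbdf2, a partner that Adam17 needs to mature, one of 0.18 (adjusted p = 0.0402). Adam10, the other protease of Cx3cl1 and Cxcl16, did not pass (0.01, adjusted p = 0.921). Over these 6 lists, 10 of 73 genes in the table passed, 8 higher and 2 lower, beside 8.64% of all genes. Leaving out replicates 2, 3 and 4 in turn left 4 of the 73 each time. With only genes of a mean of at least 10 normalised reads in the fit, 15 of 61 passed (11 higher and 4 lower), beside 2263 of 13292.

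**Figure D5:**
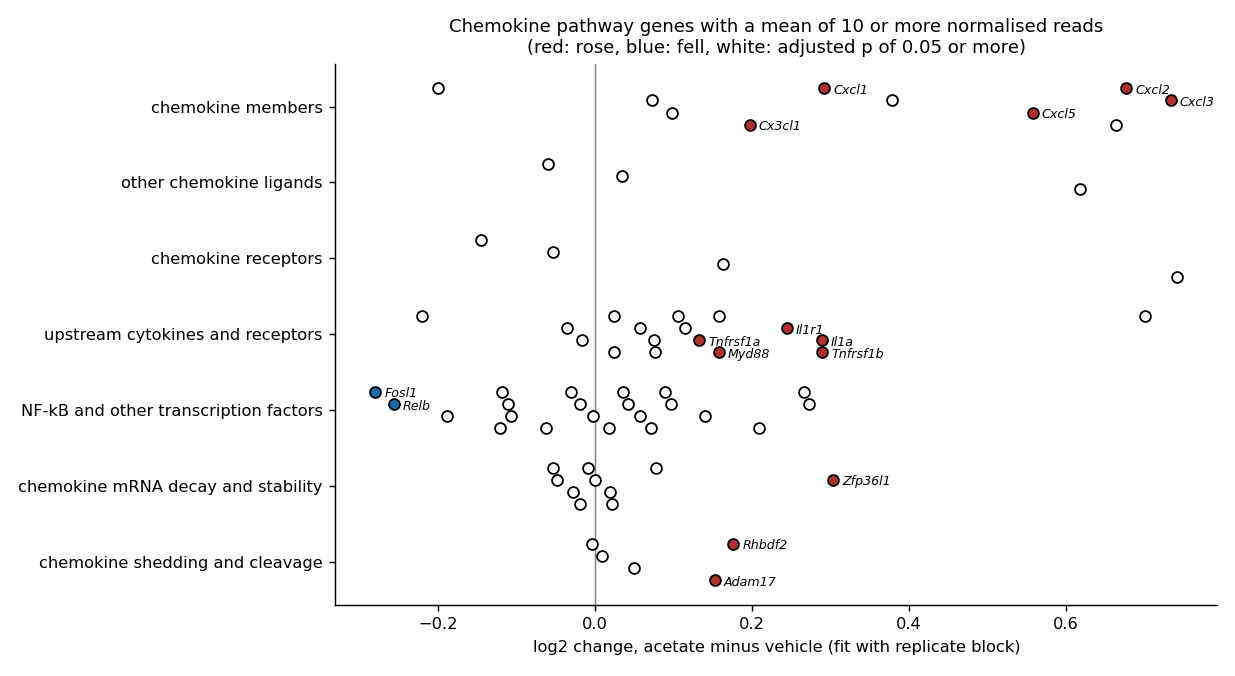
Log2 change, acetate minus vehicle, of the chemokines and of 6 related gene lists, for genes with a mean of at least 10 normalised reads (red, rose; blue, fell; white, adjusted p of 0.05 or more). Red points are the 4 ELR chemokines, Cx3cl1, 5 upstream cytokine and receptor genes, Zfp36l1, Adam17 and Rhbdf2, and the blue points are Fosl1 and Relb.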

How the data were processed

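mRNA of 4T1 cells was sequenced after 48 hours with 5 mM acetate or vehicle (4 libraries each, PE75). From stranded poly-A libraries, the authors aligned reads to GRCm38 with STAR and obtained counts per gene (methods and labels), and the submitters' processing notes also name HTSeq. Whether the counting used strand is not given in the sources used here. What the authors deposited is a normalised signal, the counts scaled to 20000000 per library and filtered for expression. Each of the 20189 genes was above 0 in at least 4 of the 8 libraries. Genes missing from the table were not analysed here.

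Values were whole multiples of 1 step per library (100% of them, within 0.01 of a read, or within 1e-06 of the value above 10000 reads), which gave back the reads, 26.2, 24.6, 19.9 and 29.3 M for vehicle libraries 1 to 4 and 25.5, 24.8, 21.2 and 27.8 M for acetate libraries. In vehicle library 3 a read is worth almost 1 unit, which cannot be told from rounding, so edgeR was also run on replicates 1, 2 and 4, an alternative chosen after seeing the data. A gene at 1 normalised read rests on about 1 read.

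Symbols and positions came from GENCODE M21 (GRCm38), which named 20004 of the genes. The test was limma 3.58.1 (R 4.3.3, trend) on log2(value + 1), a scale that understates changes of low genes, with the replicate number as a block, two-sided, with Benjamini-Hochberg adjustment over all genes and a threshold of 0.05. The block was kept because same-numbered libraries share an experiment code, and deviations from the group means correlated between partners at 0.81, 0.27, 0.20 and 0.69 for replicates 1 to 4 (18188 genes). The study describes the 4 as independent experiments. Alternatives were no block, pseudocounts of 0.1 and 5, a minimum mean of 10, median-of-ratios and quantile scaling, edgeR 4.0.16 and DESeq2 1.42.0 on the recovered reads, and leaving out each pair. The scripts were tested on simulated data. Named genes were the 10 chemokines, from each other list those past the threshold and otherwise up to 4 with the highest mean, genes between or beside the chemokines with a mean of at least 10, and the 3 genes most like each chemokine with a mean of at least 100. Some genes that these rules or lists hold are not reported here, and counts include them. Areg, Epgn, Btc, Tnf, Il1b, Zfp36, Adam10 and Ptprc were named after their values were seen. The chemokines and the gene lists were chosen with earlier results of these data known. Promoters were matched by symbol, for 5 of the 10 chemokines.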

Additional observations from a re-analysis of the deposited data

Results flagged for a closer look

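In 5 of the 20 chemokine groups of 4 libraries, 1 library lay far from the other 3 when its gap to the nearest of them was divided by the range of the group, beyond Dixon's 95% limit. Chance alone gives about 1 in 20. For Cxcl3, acetate library 1 was the highest of its group (321.8 normalised reads, gap share 0.893), and so it was for Cxcl5 (22138, gap share 0.874). For Ccl5, acetate library 1 was the lowest (36.1, gap share 0.856). For Ccl2, vehicle library 4 was the lowest (235, gap share 0.910). For Ccl20, acetate library 2 was the highest (96.9, gap share 0.919). Without replicate 1 the log2 change was 0.59 for Cxcl3 (adjusted p = 0.0343), 0.38 for Cxcl5 (0.0267) and 0.11 for Ccl5 (0.637). Without replicate 4 it was 0.46 for Ccl2 (0.228), and without replicate 2 it was -0.09 for Ccl20 (0.906).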

How the results depend on the processing

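Over the 13 alternatives, the direction held for 8 of the 10 chemokines, the exceptions being Ccl20 (0.022 without replicate 3, while -0.56 without replicate 1 was called lower) and Ccl5 (-0.0075 with edgeR on replicates 1, 2 and 4). Without the replicate block, the counts fell to 0 genes, 0 chemokines and 0 genes of the 6 lists, from 1744, 5 and 10. With a pseudocount of 0.1 or with quantile scaling, 3 chemokines passed (Cxcl1, Cxcl3 and Cxcl5), and the adjusted p was 0.0509 and 0.0580 for Cxcl2 and 0.0818 and 0.0548 for Cx3cl1. DESeq2 called 1126 genes (653 higher and 473 lower), among the 12361 to which it gave an adjusted p. The cause of these differences was not tested. Leaving out each pair in turn gave 409 to 1662 genes, 1 to 5 chemokines and 4 to 11 genes of the lists, with fewer samples in each fit. Cxcl1 and Cxcl3 passed in 11 of the 13 alternatives, all but the fit without the block and that without replicate 4. Median-of-ratios scaling moved the median of all genes by -0.02 and split the calls into 1000 higher and 821 lower, 54.9% higher in place of 69.3%. With 42 to 102 reads for Cxcl2 and 9 to 76 for Ccl7, counting error limits these genes. The p-values measure the spread between 4 pairs of cultures of 1 cell line.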
